A study of Mus musculus with 12 samples.

Results

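Broad distal peaks are the wide stretches of open chromatin that lie away from the ends of genes. Of 222105 accessible regions (peaks) counted in the series, 2890 on the 19 autosomes were at least 1500 bases long and had a centre more than 10 kb from both ends of every protein-coding gene. They made up 1.3% of all peaks and 28.6% of the 10091 autosomal peaks of that length. Length and position chose them, and no count did, although peak length itself was set by the authors' peak calling on these libraries. All 2890 passed the filter on low counts.

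Chromatin accessibility was measured by ATAC-seq, in which a transposase cuts open DNA and the fragments are counted by position. Naive CD4+ T cells from spleen and lymph node (dLN) of C57/B6 mice were cultured to the homeostatic Th17 state, an IL-17-producing helper state tied to barrier tissue, and 6000 sorted cells went into each library. The 4 groups of 3 libraries were WT cells without Dex (control) or with Dex, and GR cKO cells, which carry a conditional knockout of the glucocorticoid receptor (GR), without or with Dex. Dex, or dexamethasone, is a synthetic agonist of GR and was given for 2 days. The promoter that drives the deletion, the part of the gene deleted and the age of the mice were left out of account, being not given in the sources used here. Whether the 3 libraries of a group stem from different animals or cultures is not stated in the labels, and p-values therefore reflect the spread among these libraries and nothing more.

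In differentiated cells, wide accessible regions far from gene starts often hold several bound transcription factors side by side and act as enhancers, DNA elements that raise transcription of a gene at a distance. Clusters of such elements gather at genes that set cell identity. GR is a ligand-activated transcription factor that enters the nucleus on binding a glucocorticoid and binds mostly at distal elements, many of them already open, where accessibility can then rise or fall.

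The label of an enhancer-like class was checked against position. Of the 2890 members, 1784 (61.7%) had their centre inside a protein-coding gene and 1106 lay between genes, because the rule used distance from gene ends only. For comparison, 55.7% of tested distal peaks shorter than 1500 bases lay inside a gene. The median distance to the nearest gene end was 28.3 kb and the largest 834.6 kb. A 300-base window at an annotated RefSeq start, 250 bases before to 50 after it, overlapped 364 members (12.6%), of which 194 held an internal start of a protein-coding gene and 170 a start of a noncoding gene only. These 364 members are therefore not distal to every start, and no histone mark was measured that could tell enhancers from other open regions.

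DNA sequence was at hand for these start windows only, from the RefSeq promoter table of GRCm38.p6, the same build as mm10. Among the 67 members that Dex raised in WT cells, 3 overlapped such windows, 4 windows in all, and all 4 sequences are shown because they are the stretches of the Dex-raised members that can be read. They were chosen after their values were seen. Capitals mark matches, on either strand, to TGANTCA (the AP-1 element), AGGTCA (the RORE core), AGGAAG (an ETS core) and TGTGGT (a RUNX core), and no match overlapped another. The lncRNA gene Gm27252 starts at the edge of a member in Klf13, with a window at chr7:63896134-63896433 on the plus strand that shares 185 bases with the member. LOC115487176 starts inside a member with no protein-coding gene within 50 kb, at chr9:61013180-61013479 on the plus strand. Gm51661 has a pair of starts inside a member in Trak1, both on the minus strand, start A at chr9:121454235-121454534 and start B at chr9:121454877-121455176. The window of start B held no match to any motif searched.
Gm27252: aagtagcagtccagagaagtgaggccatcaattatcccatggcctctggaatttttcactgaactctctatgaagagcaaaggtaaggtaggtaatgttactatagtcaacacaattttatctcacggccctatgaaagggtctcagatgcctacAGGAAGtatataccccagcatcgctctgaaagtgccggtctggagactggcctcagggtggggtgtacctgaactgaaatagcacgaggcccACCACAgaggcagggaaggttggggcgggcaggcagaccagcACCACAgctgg
LOC115487176: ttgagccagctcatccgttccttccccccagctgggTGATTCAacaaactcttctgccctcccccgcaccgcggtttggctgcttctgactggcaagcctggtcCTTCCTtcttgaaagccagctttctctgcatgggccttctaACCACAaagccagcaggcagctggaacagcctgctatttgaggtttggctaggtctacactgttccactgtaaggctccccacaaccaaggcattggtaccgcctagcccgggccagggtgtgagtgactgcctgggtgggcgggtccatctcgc
Gm51661 start A: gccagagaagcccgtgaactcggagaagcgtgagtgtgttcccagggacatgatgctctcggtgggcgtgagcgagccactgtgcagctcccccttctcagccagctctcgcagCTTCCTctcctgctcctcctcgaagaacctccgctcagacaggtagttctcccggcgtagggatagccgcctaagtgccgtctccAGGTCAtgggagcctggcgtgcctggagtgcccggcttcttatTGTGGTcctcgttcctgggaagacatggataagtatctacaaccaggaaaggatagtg
Gm51661 start B: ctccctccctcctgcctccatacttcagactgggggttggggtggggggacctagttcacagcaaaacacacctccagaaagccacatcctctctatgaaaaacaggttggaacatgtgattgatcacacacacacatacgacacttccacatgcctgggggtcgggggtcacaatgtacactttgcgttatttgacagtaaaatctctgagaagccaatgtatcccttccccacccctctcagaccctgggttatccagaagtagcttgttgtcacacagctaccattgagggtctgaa

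The full palindromic glucocorticoid response element, searched on both strands, was in none of the 4 windows. It was in 0.640% of the 469 windows that overlap members and in 0.475% of all 32851 windows of that length. TGANTCA was in 9.38% of the member windows against 7.81% of all, AGGTCA in 14.7% against 16.3%, AGGAAG in 41.2% against 35.4% and TGTGGT in 20.9% against 16.8%. A match describes letters and is not evidence of binding, and windows at starts are not the centres of the members.

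Values are normalised read counts (CPM, scaled to the TMM-adjusted size of the library), and levels of different peaks are compared per kb of peak length. Members were wide and strong. Their median length was 1854 bases, with a middle range from 1654 to 2246, and 240 reached 3000 bases. The median member had 24.5 CPM, or 12.2 CPM per kb, against 3.23 CPM per kb for shorter distal peaks and 13.3 CPM per kb for the 7201 peaks of at least 1500 bases near gene ends. Level per kb varied little with length among members, with a Spearman correlation of 0.0847 across peaks that share all libraries. The biological coefficient of variation (BCV), the relative spread between replicates beyond counting error, had a median of 9.32% in members and 26.2% in shorter distal peaks.

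The longest member spanned 11891 bases at chr6:31048624-31060514, with no protein-coding gene within 50 kb and Klf14 as the nearest, but held only 5.47 CPM per kb. Next came members of 7649 bases in Ets1, 7605 bases near Zswim4, 7241 bases in Mroh2a and 7094 bases in Abcb9. The Zswim4 member, at chr8:84197139-84204743, was the most open member by total level, at 209.7 CPM. Its centre was 10001 bases from the nearest gene end, so it only just met the distance rule. By level per kb the leaders were members near Nek6 (78.5 CPM per kb), nearest to Jarid2 (73.6), nearest to Klf14 but separate from the longest (72.6), nearest to Rbpj (71.7) and in Xylt1 (70.7). None of these 10 members was called in any comparison. In the Nek6 member, at chr2:38471679-38473524, WT control libraries had 154, 154 and 137 CPM, WT Dex libraries 159, 168 and 147, cKO control libraries 129, 153 and 125, and cKO Dex libraries 139.9, 148 and 123. The 4 groups overlapped.

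Some members lay in runs along the chromosome, and no other peak class was chained for comparison. Chaining members whose centres follow each other within 25 kb left 1613 alone and put 1277 (44.2%) into 474 runs, of which 36 held 5 or more. The run with most members had 14, all in Bcl11b, a transcription factor that commits and keeps cells in the T lineage, over 74.4 kb at chr12:107919581-107993939. Ets1, a transcription factor of T cell development, held 11 over 53.3 kb at chr9:32694865-32748139, and Septin9, a cytoskeletal GTPase, held 10 over 45.9 kb at chr11:117305458-117351321. Without regard to spacing, Bach2, a repressor that keeps T cells undifferentiated, had the most members of any gene, at 16.

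**Figure D1:**
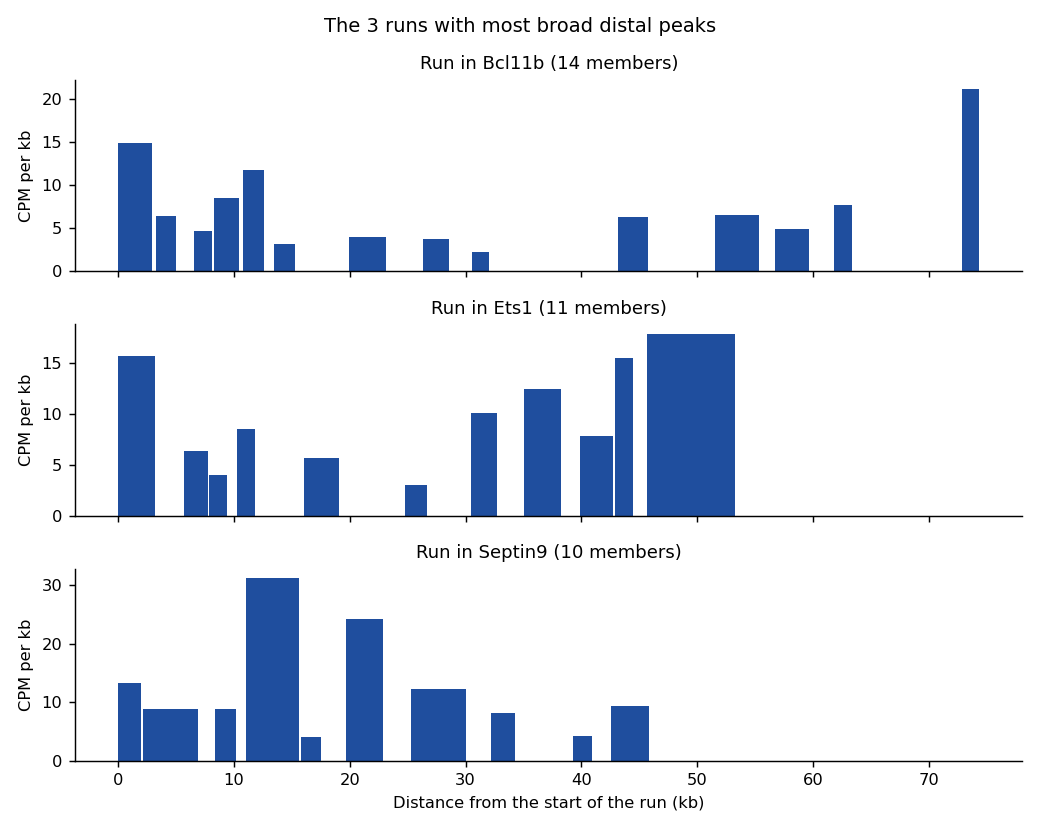
Level per kb (CPM per kb, mean of 12 libraries, vertical axis) of each member in the runs in Bcl11b, Ets1 and Septin9 against distance from the start of the run (kb), with bar width showing peak length. The runs hold 14, 11 and 10 members and span 74.4, 53.3 and 45.9 kb.

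The summed level of the run in Ets1 was 328, 345 and 346 CPM in WT control libraries, 373, 389 and 368 in WT Dex, 310.5, 359 and 326 in cKO control and 352, 369 and 331 in cKO Dex. The WT Dex libraries were all above the WT control libraries, while the cKO groups overlapped. Each of its 11 members had a positive Dex log2 fold change in WT, with a median of 0.19, but the smallest adjusted p was 0.0545 and none was called. In cKO 9 of the 11 were positive, with a median of 0.15, so the direction was not particular to WT. The median difference between the Dex effects was 0.06. Under scaling by total counts 9 of 11 were positive in WT, and under loess offsets 8 of 11. The runs in Bcl11b and Septin9 held no called member either.

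Per-library totals were close between groups. Members took 8.88% ± 0.08 (SD, n = 3) of all counts in WT control libraries, 9.12% ± 0.08 in WT Dex libraries, 8.91% ± 0.25 in cKO control libraries and 8.91% ± 0.20 in cKO Dex libraries. WT Dex libraries (9.03% to 9.17%) did not overlap WT control libraries (8.80% to 8.96%), while the cKO groups overlapped. Total counts over all peaks ran from 12988437 to 25081591 per library. With no molecular identifiers, PCR copies of 1 molecule could not be told with certainty from separate molecules. Whether copies were removed was not given in the sources used here. Libraries were unlike in how much of their counts gathered in strong peaks: the strongest 10% of all peaks held 60.6% to 62.0% of the total for WT control libraries, 60.8% to 63.5% for WT Dex, 57.9% to 60.3% for cKO control and 58.1% to 61.6% for cKO Dex. Members are strong peaks, and in each group their median CPM was highest in the library with the highest such share. Whether the share bears on their level was not tested, and fits that include it are given beside the counts. Per kb, the strongest peak of each marker gene had 11.1 to 62.4 CPM in the T cell list, 9.08 to 89.4 in the Th17 list, 3.03 to 24.6 in the B cell list, 7.44 to 17.4 in the CD8 T and NK cell list, 2.49 to 46.4 in the myeloid list and 4.49 to 16.1 in the erythroid and stromal list. The ranges overlap.

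The gene for GR itself, Nr3c1, held a member of 3542 bases at chr18:39488851-39492392. Its level was 60.2, 74.4 and 70.1 CPM in WT control, 74.9, 82.0 and 65.3 in WT Dex, 52.3, 60.6 and 57.4 in cKO control and 69.9, 61.5 and 57.1 in cKO Dex. The cKO control libraries overlapped the lowest WT control library, and no comparison was called (log2 −0.27 ± 0.10 SE for cKO against WT control, adjusted p = 0.532). This peak does not check the genotype labels, as the deleted stretch was not given in the sources used here.

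The question for the Dex comparison in WT cells is where glucocorticoid changed accessibility. Dex raised 67 broad distal peaks and lowered 3 at an adjusted p under 0.05 (edgeR's quasi-likelihood test, Benjamini-Hochberg over all 202587 tested peaks), and such peaks are referred to as called. The 70 are 2.42% of members, beside 0.534% of all tested peaks called in either direction, 0.420% called higher and 0.114% called lower. The raised peaks that were assigned a gene lay at or near 54 genes, led by the chemokine receptor gene Cxcr4, and the others had no gene within 50 kb. The median log2 fold change of the 67 was 0.55. Only 7 members exceeded a log2 fold change of 1. In bulk samples, a change in the share of cells with an open site and a change in how often it is open per cell cannot be told apart.

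The number called depended on how libraries were put on one scale and on single libraries. It was 135 (106 higher, 29 lower) with total counts in place of TMM, 180 (99 higher, 81 lower) with loess offsets and 158 (101 higher, 57 lower) with the share of counts in the strongest 10% as a covariate. Over all tested peaks the share called also moved, from 0.534% to 0.867%, 1.05% and 1.11% in these fits. At least 69 of the 70 members were called in each of them. The count was 42, 46 or 41 without WT control replicate 1, 2 or 3, and 33 or 36 without WT Dex replicate 1 or 2, while the share called over all tested peaks was 0.236% to 0.338% in these 5 fits. A small upward tilt of the whole class rested on the scaling: 68.9% of members had a positive log2 fold change with a median of 0.07 under TMM, against 55.6% and 0.02 under total counts and 49.7% and −0.00 under loess offsets. The median over all tested peaks was −0.00, −0.05 and −0.00 in the same fits, and all 67 raised members stayed positive in each. The tilt was not particular to members. Under TMM, 79.7% of peaks of at least 1500 bases near gene ends were positive, with a median of 0.09. Shorter distal peaks had 47.2% positive and a median of −0.03. In their bin from 40 to 80 CPM the median was 0.08, against 0.09 for members of that level.

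**Figure D2:**
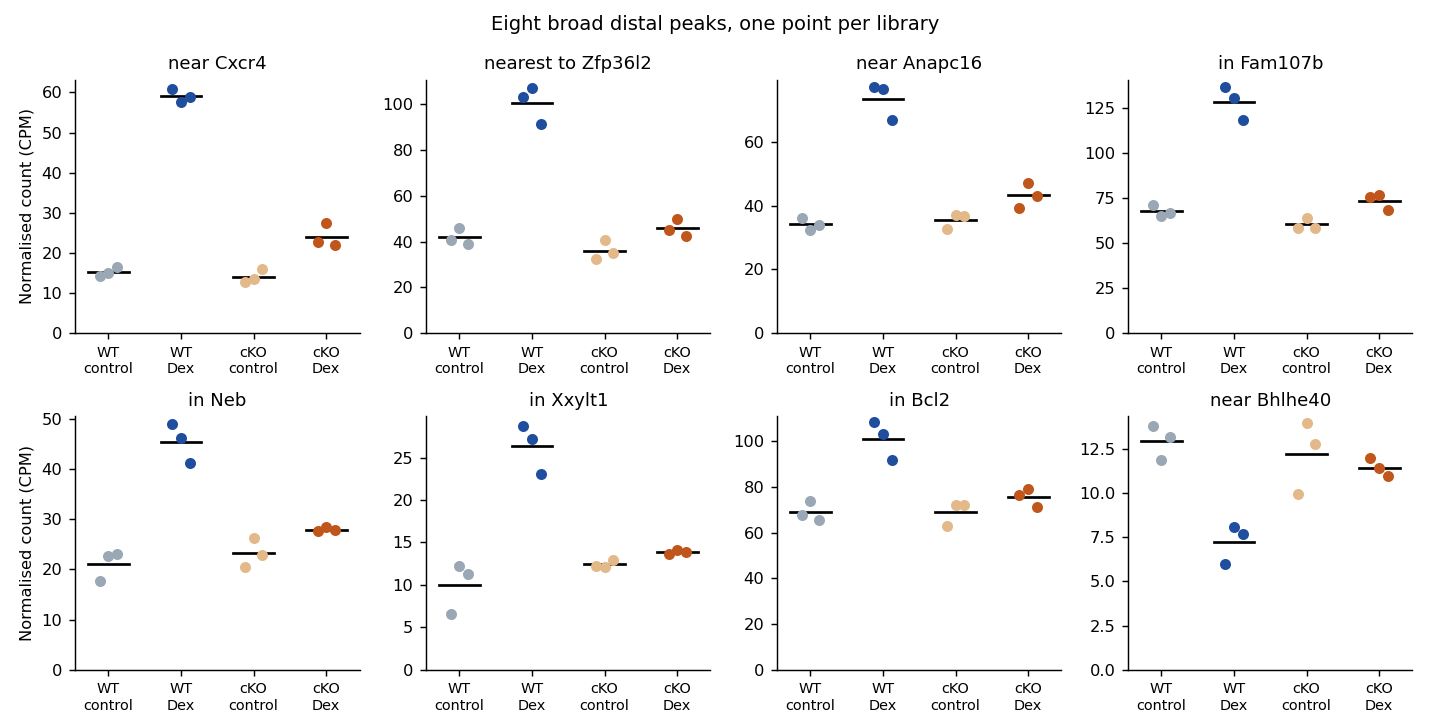
Normalised count (CPM, vertical axis from 0) in each of the 12 libraries (points, 3 per group, with the group mean as a line) at 8 members named by their nearest gene. At the Cxcr4 member the WT Dex libraries sit between 57.7 and 60.8 CPM and every other library at 27.5 CPM or below, whereas at the Bhlhe40 member the WT Dex libraries are the lowest.

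The member with the strongest response lay between genes, 22813 bases from Cxcr4, at chr1:128614316-128615908. Cxcr4 encodes the receptor for the chemokine CXCL12, guides T cell homing to marrow and lymphoid tissue, and is a known glucocorticoid-induced gene in T cells. WT control libraries had 14.3, 14.9 and 16.5 CPM there and WT Dex libraries 60.8, 57.7 and 58.9, while cKO control had 12.8, 13.4 and 15.9 and cKO Dex 22.7, 27.5 and 22.0. Dex libraries were above control libraries without overlap in both genotypes, and all WT Dex libraries were above all cKO Dex libraries. The Dex log2 fold change was 1.95 ± 0.11 (SE) in WT, a 3.86-fold rise (adjusted p = 4.78e-20). Of 17 other tested peaks centred within 25 kb, 14 had a positive Dex fold change in WT and 1 was called higher.

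Another strong responder lay 67251 bases from its nearest gene, Zfp36l2, an RNA-binding protein that speeds mRNA decay, at chr17:84115758-84117588. It had 40.9, 45.8 and 39.1 CPM in WT control and 103, 107 and 91.5 in WT Dex, and 32.3, 40.8 and 35.2 in cKO control and 44.9, 49.9 and 42.3 in cKO Dex. The WT Dex libraries stood above all 9 others, by a log2 fold change over WT control of 1.26 ± 0.10 (adjusted p = 5.23e-14). It is too far from Zfp36l2 to be assigned to that gene by the 50 kb limit used here.

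Anapc16, a subunit of the anaphase-promoting complex, had a member 12922 bases away at chr10:59973570-59975404. Levels there were 36.0, 32.3 and 34.1 CPM in WT control, 77.3, 76.5 and 66.7 in WT Dex, 32.7, 37.0 and 36.8 in cKO control and 39.2, 47.2 and 43.1 in cKO Dex. In WT the groups were apart by a log2 fold change of 1.11 ± 0.10 (adjusted p = 6.26e-12). A member in Fam107b, at chr2:3726309-3727932, was among the most open of the raised peaks, with 71.3, 64.8 and 66.5 CPM in WT control, 137, 130.3 and 118 in WT Dex, 58.6, 63.8 and 58.6 in cKO control and 75.6, 76.9 and 68.2 in cKO Dex. It rose by a log2 fold change of 0.93 ± 0.09 in WT, and 4 of 26 other peaks within 25 kb were also called higher.

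Neb encodes nebulin, a giant protein of skeletal muscle thin filaments. The member inside it, at chr2:52310152-52311660, had 17.7, 22.8 and 23.0 CPM in WT control and 49.0, 46.3 and 41.3 in WT Dex, against 20.5, 26.3 and 22.9 in cKO control and 27.7, 28.4 and 27.8 in cKO Dex. Only the WT Dex libraries exceeded 30 CPM, and 4 of 13 other peaks within 25 kb were also called higher. Xxylt1, a xylosyltransferase that modifies Notch receptors, held a member at chr16:31039378-31041007 with 6.56, 12.2 and 11.3 CPM in WT control, 28.7, 27.2 and 23.0 in WT Dex, 12.2, 12.2 and 12.9 in cKO control and 13.6, 14.1 and 13.8 in cKO Dex. The log2 fold changes in WT were 1.09 ± 0.11 at Neb and 1.36 ± 0.14 at Xxylt1 (adjusted p = 3.45e-10 for both). WT control replicate 1 was the lowest of the 12 libraries at both members.

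The other 6 of the 12 raised members with the smallest p had log2 fold changes from 0.79 to 1.19 in WT. They lay 177930 bases from Adamts20, a secreted protease (0.99 ± 0.10), near Armc12 (1.19 ± 0.13), near Srp9, part of the signal recognition particle (0.86 ± 0.10), in Agpat4, a phospholipid acyltransferase (0.89 ± 0.11), in Ica1l (0.79 ± 0.10) and near the predicted gene Gm46963 (0.81 ± 0.10). At Agpat4, WT control libraries had 21.7, 22.4 and 25.0 CPM, WT Dex libraries 45.3, 42.9 and 40.1, cKO control libraries 23.6, 30.0 and 27.3, and cKO Dex libraries 28.2, 31.8 and 26.99. There the cKO groups overlapped while the WT groups did not. At the 3 members with a readable start window, the log2 fold change in WT was 0.68 at Klf13, 0.46 at LOC115487176 and 0.73 at Trak1.

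Genes of T cell function were read from lists chosen with earlier results of these data known, so their counts are a description. The GR target list had 7 of 24 genes with a member (11 members), and members at Cxcr4 and Dusp1 were called higher. Dusp1 encodes a phosphatase that switches off MAP kinases, and its member lay between genes, 22655.5 bases away, at chr17:26529925-26532330. That member had 15.9, 14.2 and 15.5 CPM in WT control, 20.7, 27.5 and 20.02 in WT Dex, 15.2, 15.8 and 14.3 in cKO control and 18.6, 15.9 and 15.8 in cKO Dex (log2 0.59 ± 0.13 in WT, adjusted p = 0.00713). WT Dex replicate 2 was the highest library there, and the call was lost without it (0.42) and without WT control replicate 2 or 3. The median log2 fold change of the 11 members was 0.12, beside 0.07 over all members and −0.00 over all tested peaks.

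The apoptosis list had 3 of 10 genes with a member (9 members, median 0.18), and 2 of those genes had a raised member. Bcl2, which blocks mitochondrial cell death, held a member at chr1:106612203-106614234 with 67.8, 73.8 and 65.6 CPM in WT control, 109, 103 and 91.8 in WT Dex, 63.1, 72.3 and 72.1 in cKO control and 76.3, 79.3 and 71.3 in cKO Dex. The WT Dex libraries were above all 9 others, with a log2 fold change of 0.55 ± 0.10 (adjusted p = 0.000233). Cradd, an adaptor of caspase-dependent death, held a member with a log2 fold change of 0.58 ± 0.12 (adjusted p = 0.00261), which was lost without WT control replicate 1 or 2. Bcl2 was also the only gene of the naive and memory T cell list with a called member, among 11 of 15 genes with 45 members (median 0.12).

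Of the Th17 programme, 11 of 32 genes had a member (21 members, median 0.01), and the called member was lower. Bhlhe40 encodes a transcription factor that sustains cytokine production in helper T cells, and its member lay 19906 bases away at chr6:108685832-108687830. Levels were 13.8, 11.9 and 13.2 CPM in WT control, 5.99, 8.09 and 7.66 in WT Dex, 9.96, 13.9 and 12.8 in cKO control and 11.96, 11.4 and 10.9 in cKO Dex. The WT Dex libraries were the 3 lowest of the 12, and the log2 fold change was −0.83 ± 0.15 (adjusted p = 0.000417).

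Among AP-1 and NF-kB genes, 6 of 18 had a member (10 members, median 0.10), and 1 near Batf3, an AP-1 family factor, was raised by a log2 fold change of 0.49 ± 0.11 (adjusted p = 0.016), a call lost without WT control replicate 1 or 3 or WT Dex replicate 1 or 2. Migration and homing genes had 5 of 18 with a member (7 members, median 0.12), of which Cxcr4 alone was called. Activation and co-inhibition genes had 9 of 22 with a member (15 members, median 0.09) and none called. Other helper fate genes, 12 in number, had no member. The Th17 and B cell marker lists had 1 member each, neither called, and the CD8 T and NK, myeloid, and erythroid and stromal lists had none.

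The other 2 lowered members were weak. Pdgfb, a growth factor, had a member at chr15:80035984-80037549, with 6.25, 5.32 and 6.31 CPM in WT control, 2.77, 3.35 and 4.14 in WT Dex, 6.42, 6.32 and 4.71 in cKO control and 5.90, 4.70 and 5.02 in cKO Dex (log2 −0.79 ± 0.19, adjusted p = 0.0305). The third had no gene within 50 kb, with Rgs3 as the nearest, and fell by 0.60 ± 0.15 on the log2 scale (adjusted p = 0.038). The Pdgfb call was lost without WT control replicate 1 or 3 or WT Dex replicate 1 or 2, and the call nearest to Rgs3 without each of the 6 WT libraries in turn, under limma-voom (adjusted p = 0.0558) and without the low-count filter (adjusted p = 0.0504). All 3 lowered members lay between genes. Of 41 called members inside genes none was lower.

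Raised members had raised neighbours. Among tested peaks centred within 25 kb, another peak called higher was found for 25 of the 67 raised members (37.3%), against 184 of all 2890 members (6.37%). The median member had 16 such neighbours and the median raised member 18. By run, 34 of 1613 members standing alone were called, 34 of 1039 in runs of 2 to 4, and 2 of 238 in runs of 5 or more.

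Members were then set beside other peak classes at like levels, since the median member had 24.5 CPM and the median shorter distal peak 1.13 CPM. In the bin from 20 to 40 CPM, 26 of 948 members (2.74%) were called for Dex in WT, beside 64 of 2238 shorter distal peaks (2.86%), 16 of 2632 wide peaks near gene ends (0.608%) and 27 of 2581 short peaks near gene ends (1.05%). From 40 to 80 CPM the counts were 20 of 655 members (3.05%), 17 of 507 shorter distal peaks (3.35%), 13 of 1827 wide peaks near gene ends (0.712%) and 5 of 632 short peaks near gene ends (0.791%). In both bins the shares of members and shorter distal peaks were close, and both were above those near gene ends. This did not hold at low levels. From 5 to 10 CPM the shares, in the same order, were 1.18%, 1.73%, 0.796% and 1.18%. Under 5 CPM they were 0%, 0.302%, 0.439% and 0.148%. From 10 to 20 CPM they were 2.34%, 2.97%, 0.781% and 1.47%. At 80 CPM or more they were 2.33%, 3.85% (1 of 26), 0.571% and 0%. In each bin members were below shorter distal peaks. No test was made of these differences, and the classes share every library.

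**Figure D3:**
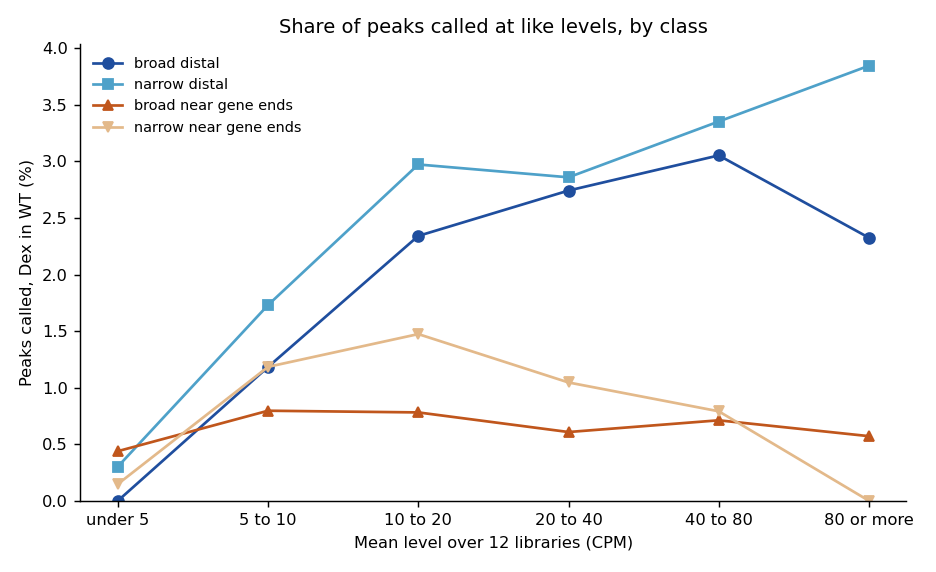
Percent of tested peaks called for Dex in WT (vertical axis from 0) by bin of mean level over 12 libraries (CPM, horizontal axis) for 4 peak classes, with bins of fewer than 20 peaks left out. In the bin from 20 to 40 CPM broad and narrow distal peaks are at 2.74% and 2.86%, and peaks near gene ends at 0.608% and 1.05%.

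The share called was 3.36% (16 of 476) from 1500 to 1599 bases, between 1.83% and 3.28% in the 4 bins up to 3000 bases, with no steady trend, and 0.417% (1 of 240) at 3000 bases or more. In that widest bin the SD of log2 fold changes over members was 0.13, against 0.23 in the shortest bin. The widest bin had the highest median level, 46.6 CPM against 17.0. On the thresholds of the rule, distal peaks of 1400 to 1499 bases were called in 27 of 711 cases (3.80%), and peaks of at least 1500 bases at 8 to 10 kb from a gene end in 9 of 297 (3.03%), beside 6 of 249 members (2.41%) at 10 to 12 kb. Members with a start window were called in 3 of 364 cases (0.824%), none of them at a protein-coding start, and members without in 67 of 2526 (2.65%).

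In cKO cells the same comparison called 1 member, the Cxcr4 peak, beside 0.00296% of all tested peaks. Its Dex log2 fold change was 0.78 ± 0.12 (adjusted p = 0.000695), a 1.72-fold rise with all 3 cKO Dex libraries above all 3 cKO control libraries. The call was lost without cKO control replicate 1 or cKO Dex replicate 2, and 8 members (1 higher, 7 lower) were called without cKO Dex replicate 3, a fit that called 314 peaks in all (41 higher, 273 lower) against 6 with every library. No member was called lower, and limma-voom and DESeq2 also called the Cxcr4 member alone. An unadjusted p under 0.05, in either direction, was found at 125 members (4.33%), below the 5.84% of all tested peaks. The next smallest p belonged to members in Kifc3, a kinesin (log2 −0.82 ± 0.21, adjusted p = 0.629), and in Tmem104 (−0.49 ± 0.13, adjusted p = 0.678), which were not called.

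The 67 members raised in WT can be read for their direction in cKO, because the Dex comparisons of the 2 genotypes share no library. In cKO, 62 of the 67 (92.5%) had a positive Dex log2 fold change, with a median of 0.15 against 0.55 in WT, and 23 had an unadjusted p under 0.05. Over all members 69.5% were positive in cKO, with a median of 0.05. Under total counts these shares were 57 of 67 and 49.3%, and under loess offsets 52 of 67 and 33.4%. The share of positive values among the raised members was above that of the class in each of these fits. The smaller median in cKO than in WT is no result on these 67, since a high WT value chose them, and the test of the difference between genotypes is the interaction.

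**Figure D4:**
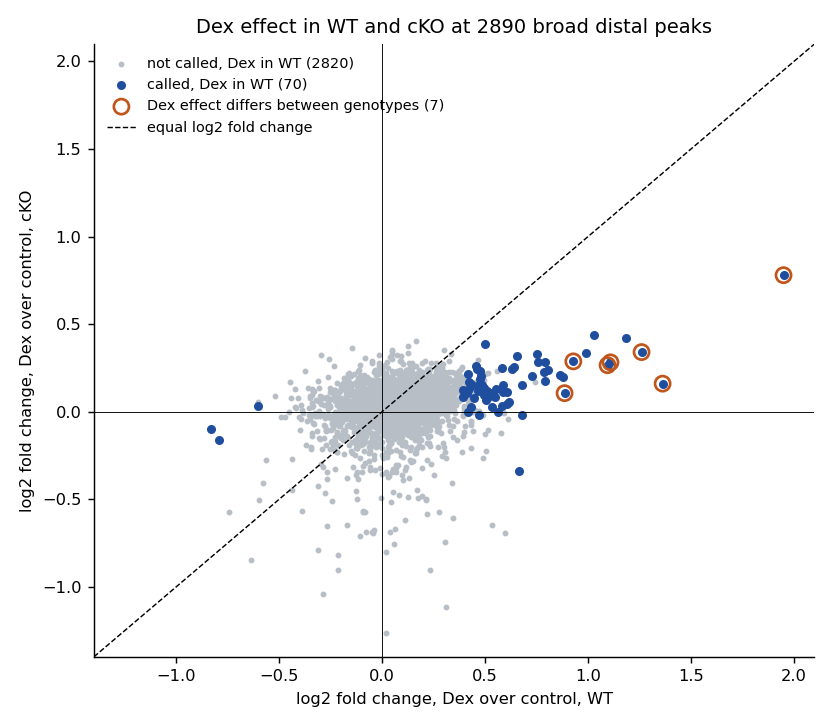
Dex log2 fold change in WT (horizontal axis) against cKO (vertical axis) for all 2890 members, with the 70 called in WT in blue, the 7 whose Dex effect differed between genotypes ringed, and equal change as a dashed line. The 67 raised members lie below the dashed line, a side that their choice by a high WT value favours, with the Cxcr4 member at 1.95 in WT and 0.78 in cKO.

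The difference between the Dex effects, which asks what depends on the receptor, was called at 7 members, all with the larger effect in WT, beside 0.0276% of all tested peaks (0.0271% with a higher and 0.000494% with a lower effect in WT). At Cxcr4 the WT effect exceeded the cKO effect by 1.17 ± 0.16 on the log2 scale (adjusted p = 3.73e-05). At the other 6 the excess was 1.20 ± 0.20 at Xxylt1, 0.92 ± 0.15 at the member nearest to Zfp36l2, 0.83 ± 0.14 near Anapc16, 0.83 ± 0.16 in Neb, 0.78 ± 0.16 in Agpat4 and 0.64 ± 0.13 in Fam107b, with adjusted p from 0.000471 to 0.0386. The log2 fold changes in cKO at these 6 were 0.16, 0.34, 0.28, 0.27, 0.11 and 0.29, none of them called. The calls at Cxcr4, Xxylt1 and the member nearest to Zfp36l2 held without each library in turn, while Anapc16 was lost without cKO Dex replicate 1. Neb was lost without each of 5 libraries in turn (WT control 1, WT Dex 1, cKO control 2 or 3, cKO Dex 1), and Agpat4 and Fam107b without each of 8. With every library kept, the Fam107b call was also lost under median-ratio (RLE) scaling (adjusted p = 0.0764) and without the low-count filter (adjusted p = 0.0718). The count fell to 4 without WT Dex replicate 1, cKO control replicate 2 or cKO control replicate 3 and to 3 without cKO Dex replicate 1. Over all tested peaks the share called was 0.0135%, 0.0185%, 0.0146% and 0.0156% in the same order. With total counts the count of members was 16, under loess offsets it was 23, and it was 27 (26 larger in WT) with the share of counts in the strongest 10% as a covariate, where 0.0558%, 0.0943% and 0.122% of all tested peaks were called. At Bhlhe40 the lowering in WT exceeded that in cKO by 0.73 ± 0.20, which was not called (adjusted p = 0.414).

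Without Dex, genotype made no called difference at any member (edgeR), beside 0.0104% of all tested peaks (0.000987% higher and 0.00938% lower in cKO). At an unadjusted p under 0.05 there were 263 members (9.10%), beside 7.69% of all tested peaks. For peaks of at least 1500 bases near gene ends the share was 25.8%. DESeq2 called 15, all lower in cKO, limma-voom none, the fit on the control groups alone 2, both lower, and total counts and loess offsets gave 1 and 4, all higher in cKO. Of all tested peaks in this comparison, DESeq2 called 0.183%, the fit on the control groups alone 0.0547%, total counts 0.0188% and loess offsets 0.0242%. Over all members 34.2% were higher in cKO under TMM and 74.0% under loess offsets, so the direction of the class flips with the scaling. The strongest 10% of peaks held 57.9% to 60.3% of counts in cKO control and 60.6% to 62.0% in WT control, and with that share as a covariate 1 member was called and 66.6% were higher in cKO. The smallest p belonged to members in Slco3a1, an organic anion transporter (log2 −0.42 ± 0.10, adjusted p = 0.309), Tpcn2, a lysosomal cation channel (0.58 ± 0.15, adjusted p = 0.303) and Fancc, a DNA repair protein (−0.47 ± 0.12, adjusted p = 0.311). In the Slco3a1 member, WT control libraries had 44.5, 42.6 and 39.5 CPM and cKO control libraries 32.5, 33.4 and 28.8, with no overlap.

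Under Dex, 22 members differed between genotypes, 20 lower and 2 higher in cKO, beside 0.170% of all tested peaks, 0.130% lower and 0.0400% higher. This comparison uses the same WT Dex libraries as the Dex comparison in WT, so the values are given side by side only. The log2 difference of cKO from WT was −1.30 ± 0.11 at Cxcr4, −1.14 ± 0.10 at the member nearest to Zfp36l2, −0.92 ± 0.13 at Xxylt1, −0.80 ± 0.09 in Fam107b, −0.77 ± 0.10 near Anapc16, −0.75 ± 0.12 near Armc12, −0.73 ± 0.10 at the member nearest to Adamts20, −0.70 ± 0.11 in Neb and −0.42 ± 0.09 in Bcl2. The 2 higher members were near Bhlhe40 (0.66 ± 0.15, adjusted p = 0.0289) and in Nfatc2, a calcium-activated transcription factor of T cells (0.64 ± 0.13, adjusted p = 0.0103). These 2 calls were lost without WT Dex replicate 1 or cKO Dex replicate 2, that at Bhlhe40 also without WT Dex replicate 3 or cKO Dex replicate 1, and that in Nfatc2 also without WT Dex replicate 2. The call in Bcl2 was lost without WT Dex replicate 1 or 2 and without each cKO Dex library in turn. The Nfatc2 member, at chr2:168561389-168563521, had 13.1, 12.6 and 13.6 CPM in WT control, 9.52, 8.70 and 11.2 in WT Dex, 14.6, 16.1 and 14.1 in cKO control and 14.6, 16.0 and 15.1 in cKO Dex. WT Dex was the lowest group there, but its Dex change in WT was not called (−0.42 ± 0.13, adjusted p = 0.192).

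The count under Dex moved with single libraries and with the scaling. It was 8 without WT Dex replicate 1, 12 without WT Dex replicate 2, 35 without WT Dex replicate 3 and 13 without cKO Dex replicate 1. The share called over all tested peaks moved too, to 0.0708%, 0.0963%, 0.212% and 0.0920% in the same order. The count of members was 57 (17 higher, 40 lower) with total counts, 91 (62 higher, 29 lower) with loess offsets and 95 (60 higher, 35 lower) with the share of counts in the strongest 10% as a covariate, so that the split between directions was not stable. These fits called 0.441%, 0.488% and 0.887% of all tested peaks. At least 21 of the 22 members were called in each of these 3 fits.

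A small set of members varied within groups. A BCV over 20% was found at 30 members, whose median level was 4.0 CPM and of which 8 had no gene within 50 kb. None of the 30 was called in any comparison, which is no result on these members, as their spread enters the test. Their summed level was 256, 147 and 128 CPM in WT control, 129.8, 142 and 245 in WT Dex, 295, 214 and 280.4 in cKO control and 136, 114 and 278 in cKO Dex. In each group the highest sum was in the library with the lowest share of counts in the strongest 10% of peaks, whose part in this spread was not tested. The 7241-base member in Mroh2a, at chr1:88244557-88251797, was among them, with 32.0, 13.8 and 10.7 CPM in WT control, 8.89, 14.0 and 29.9 in WT Dex, 40.0, 26.1 and 41.6 in cKO control and 11.7, 10.9 and 44.9 in cKO Dex. The 4 groups overlapped.

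**Figure D5:**
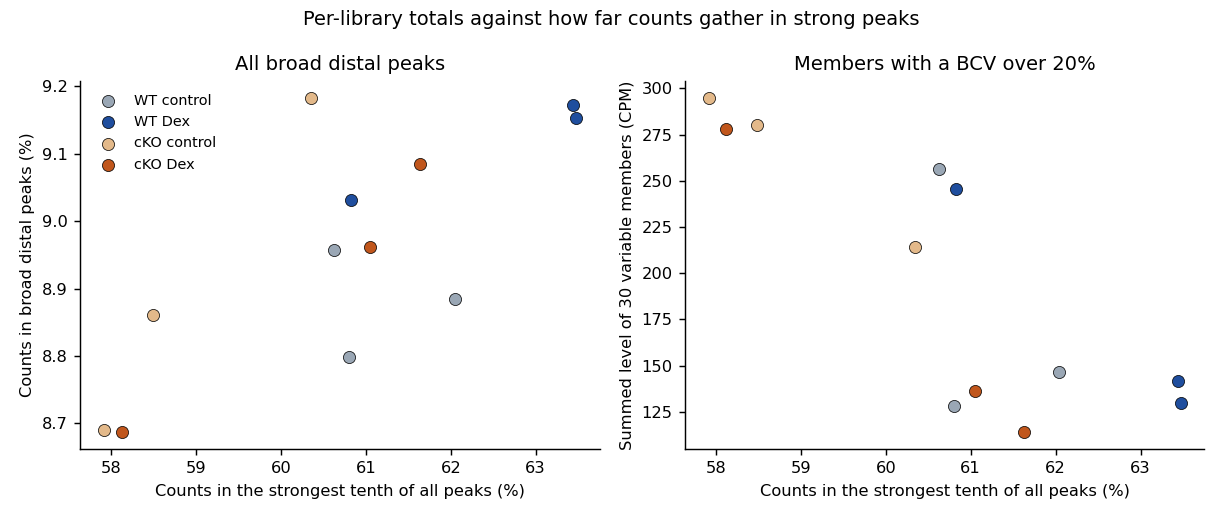
Counts in all members (%, left) and summed level of the 30 members with a BCV over 20% (CPM, right) against the share of counts in the strongest 10% of all peaks (%), 1 point per library, colored by group. Members hold 8.69% to 9.18% of counts in every library, while the 30 variable members range from 114 to 295 CPM and are highest, within each group, in the library where the strongest 10% holds least.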

How the data were processed

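ATAC-seq raw counts per peak, whole numbers with no normalisation, were deposited by the authors for a joint peak set in 12 libraries. The build was mm10 and the tools were, in no order, Genrich 0.6.1, featureCounts 2.1.1, SAMtools 1.3, Bowtie2 2.3.5, deepTools 3.5.6, Trimmomatic 0.39 and Picard 2.18.27, per the submitters' processing notes. Their roles, any shift for the transposase cut and any pooling for peak calling were not given in the sources used here. If Dex libraries took part in peak calling, peaks can be wider where those libraries are open.

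Here, filterByExpr (minimum count 10, minimum total 15) kept 202587 peaks and left out 19518. Counts were TMM-scaled and fitted with edgeR 4.0.16 under R 4.3.3 (alternatives with limma 3.58.1 and DESeq2 1.42.0) by its robust quasi-likelihood F-test over all 12 libraries, with 1 coefficient per group and 8 residual degrees of freedom. Two-sided p-values were adjusted (Benjamini-Hochberg) over all tested peaks, and the SE was the size of the log2 fold change divided by the square root of F. The steps were tested on simulated data. Loess offsets remove trends of fold change with level.

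Gene spans (21887 protein-coding genes), starts and window sequences came from RefSeq, GRCm38.p6. A member took the gene holding its centre, otherwise the nearest within 50 kb, which need not be the gene it regulates. For each comparison the text names, of the called members, the 12 higher and 8 lower with the smallest p (3 uncalled ones where fewer than 3 were called), the 5 longest, the 5 highest per kb, the 3 largest runs and list genes called in WT. The members and lists were chosen with earlier results of these data known. No motif was searched in the members themselves, for which no genome was used here. A few named results are not reported here.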

Additional observations from a re-analysis of the deposited data

Results flagged for a closer look

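At 7 broad distal peaks the Dex effect differed between WT and cKO cells by edgeR's interaction test, with the larger effect in WT. The excess of the WT effect, on the log2 scale, was 1.20 in Xxylt1, 1.17 near Cxcr4, 0.92 at the member nearest to Zfp36l2, 0.83 near Anapc16, 0.83 in Neb, 0.78 in Agpat4 and 0.64 in Fam107b. At the Cxcr4 member the cKO Dex libraries were also above the cKO control libraries, so the response was smaller in cKO and was still measured there.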

How the results depend on the processing

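No named result changed direction while called under any alternative run. Of 1010 recomputed values of 65 named results, 932 kept their direction and their side of the threshold, 68 calls were lost and 10 were gained. For Dex in WT, 135 members were called with total counts, 180 with loess offsets, 106 with DESeq2, 131 with only the WT groups in the fit and 158 with the share of counts in the strongest 10% as a covariate. These fits called 0.867%, 1.05%, 0.651%, 1.05% and 1.11% of all tested peaks. Leaving out each library gave 33 to 75 members, with 0.236% to 0.460% of all tested peaks called. For Dex in cKO, leaving out a library gave 0 to 8 members and 0.000470% to 0.148% of all tested peaks. The interaction was called at 16 members with total counts, 23 with loess offsets, 11 with DESeq2 and 27 with the covariate, and at 3 to 8 with a library left out. The shares over all tested peaks were 0.0558%, 0.0943%, 0.0400% and 0.122%, and 0.0135% to 0.0832% with a library left out. Genotype in control cells was called at 1 member with total counts, 4 with loess offsets, 15 with DESeq2, 2 with only the control groups and 1 with the covariate, and at 0 to 1 with a library left out. Over all tested peaks the shares were 0.0188%, 0.0242%, 0.183%, 0.0547% and 0.00938%, and 0.00616% to 0.0108% with a library left out. Genotype under Dex was called at 57 with total counts, 91 with loess offsets, 40 with limma-voom, 59 with DESeq2 and 95 with the covariate, and at 8 to 35 with a library left out. Of all tested peaks, 0.441%, 0.488%, 0.244%, 0.324% and 0.887% were called, and 0.0708% to 0.212% with a library left out. Fewer libraries lower the power of each left-out fit, and the cause of the other changes was not tested. Lowering or raising the length limit, or setting the distance to 5 or 50 kb, gave 2.25% to 2.70% called for Dex in WT.

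Replicate numbers did not pair the libraries: deviations of same-numbered libraries correlated between −0.19 and 0.26, with 3 of 18 pairs over 0.1. With the replicate block, 139 members were called for Dex in WT, 1 for Dex in cKO, 11 for the interaction, 9 (all lower) for genotype in control cells and 82 for genotype under Dex. Of all tested peaks that fit called 0.862%, 0.00346%, 0.0489%, 0.0854% and 0.502% in the same order.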
